A study of Mus musculus with 16 samples.

Results

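The 10 genes described here encode oxygen-dependent histone demethylases: Kdm2a, Kdm2b, Kdm3a, Kdm3b, Kdm4a, Kdm4b, Kdm4c, Kdm5a, Kdm5b and Kdm6b. They were taken by symbol from a table of 21924 protein-coding genes, in which all 10 were found, and each was followed through 16 RNA-seq libraries of mouse germline stem (GS) cells. GS cells are the cultured form of spermatogonial stem cells, and here grew on a layer of mouse embryonic fibroblasts with the growth factors GDNF and FGF2. The libraries fall into 8 groups of 2. Wild type DBA/2 cells gave 1 group at 20% oxygen and 1 at 1%. A line of mixed 129 x C57BL/6 background was sampled as Hif1a wild type and as Hif1a KO, each at 20% and 1% oxygen. A C57BL/6 line was sampled as Top1mt wild type and Top1mt KO, at 1% oxygen only. The cells labelled Hif1a KO received AxCANCre, a virus that carries the Cre recombinase, on the day hypoxia began, and the labels do not say whether its wild type cells had a control virus. Low oxygen was set in gassed plastic bags, for 2 days per the series text. Names of the 1% libraries of the Hif1a line, however, carry the marks 6d and _B. Sample numbers jump between oxygen levels in both lines, and numbers 17 and 18 occur at 1% oxygen in DBA/2 and in Hif1a wild type libraries. No label names a batch, and one that goes with these marks or numbers cannot be told apart from oxygen. No label says whether the 2 libraries of a group came from separate cultures, so p-values measure only the spread between these libraries.

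The proteins share a JmjC catalytic domain, which holds iron and removes methyl groups from histone lysines by oxidation, using molecular oxygen and 2-oxoglutarate as substrates. Their activity can therefore fall with oxygen, and the genes of some members, Kdm3a among them, are known targets of the hypoxia-inducible factors (HIFs) in other cells. Each family acts on its own marks: KDM3 proteins act on H3K9 methylation, KDM4 proteins on H3K9 and H3K36, KDM2 proteins on H3K36, KDM5 proteins on H3K4, and KDM6B on H3K27. In the germ line, KDM3A is known for its role in late spermatogenesis. The libraries hold transcripts only, so enzyme activity and histone marks were not measured.

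Depth ranged from 11942104 to 25659895 reads per library. Levels are given in CPM, read counts scaled to the same total in each library. At 20% oxygen the libraries labelled Hif1a KO held 139 and 142 CPM of the Hif1a transcript, against 116 and 118 CPM in Hif1a wild type ones. At 1% they held 618 and 593 CPM, against 251 and 251 CPM. It was thus higher, not lower, in the libraries labelled Hif1a KO, and a transcript count does not show whether an exon was lost. Top1mt stood at 32.8 and 34.8 CPM in wild type and at 9.99 and 10.96 CPM in Top1mt KO libraries. The 8 reference targets of HIF, such as Bnip3, all rose at 1% oxygen in all 3 oxygen comparisons, that of libraries labelled Hif1a KO included, with median log2 fold changes of 1.77, 1.92 and 2.63. All 13 germ cell markers and all 24 feeder fibroblast markers were above 0 in every library. The 9 markers of testis somatic cells summed to between 22.8 and 54.3 CPM. Of these, Sox9 (6.70 to 19.9 CPM), Wt1 (8.59 to 29.3), Star (3.82 to 6.20) and Amh (0.128 to 1.05) were above 0 in every library, while Cyp17a1 and Lhcgr were at 0 in 13 libraries each, Fshr in 11, and Insl3 and Hsd3b1 in 8 each.

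**Figure D1:**
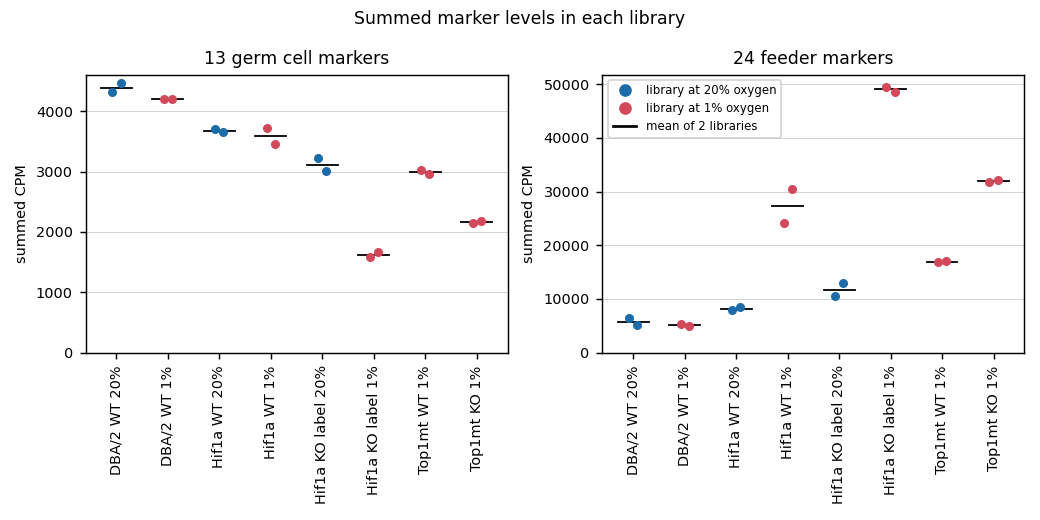
Summed CPM of 13 germ cell markers and of 24 feeder markers in each library (points, blue at 20% and red at 1% oxygen), with the mean of each group of 2 as a bar. The feeder sum runs from 5157 CPM in DBA/2 cells at 1% oxygen to 49096 CPM in the libraries labelled Hif1a KO at 1%.

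Cells of more than one kind gave RNA to these bulk libraries, in which fewer cells of a type and less RNA per cell cannot be told apart. The feeder sum was 0.893 times as high at 1% as at 20% oxygen in DBA/2 cells, 3.31 times in Hif1a wild type cells and 4.19 times in cells labelled Hif1a KO. It was 1.43 and 1.80 times as high in libraries labelled Hif1a KO as in Hif1a wild type ones, at 20% and 1% oxygen, and 1.89 times as high in Top1mt KO as in Top1mt wild type. The germ cell sum had ratios of 0.957, 0.976, 0.521, 0.848, 0.452 and 0.724 in the same order. The part of these shifts in the results below was not tested. Of the 3 oxygen comparisons, that of DBA/2 cells had the feeder sums nearest to each other, yet 14 of 24 feeder markers were called lower and 4 higher there (median -0.37), and 8 of 13 germ cell markers lower and 2 higher. In Hif1a wild type cells 17 feeder markers were called higher and 3 lower. Of all genes, 31.8% were called higher and 25.5% lower in DBA/2 cells, and 18.4% and 34.6% in Hif1a wild type cells.

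Promoters of 5 of the 10 genes were held by RefSeq windows of GRCm38.p6, each running from 250 bases before to 50 after an annotated start. Windows of Kdm4c, Kdm3a, Kdm5b and Kdm4a are printed because the first 3 genes rose most in DBA/2 cells at 1% oxygen, while Kdm4a did not pass the test there. Capitals mark ACGTG or GCGTG on either strand, the core letters of the hypoxia response element. A palindrome CACGTG counts once on each strand.
Kdm4c, chr4:74251629-74251928, + strand: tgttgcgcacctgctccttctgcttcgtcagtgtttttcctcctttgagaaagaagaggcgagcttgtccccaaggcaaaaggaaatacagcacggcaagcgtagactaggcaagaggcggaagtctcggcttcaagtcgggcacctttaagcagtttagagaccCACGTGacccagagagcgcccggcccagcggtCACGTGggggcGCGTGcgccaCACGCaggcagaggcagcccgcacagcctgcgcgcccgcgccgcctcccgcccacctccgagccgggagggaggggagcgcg
Kdm4c, chr4:74242247-74242546, + strand: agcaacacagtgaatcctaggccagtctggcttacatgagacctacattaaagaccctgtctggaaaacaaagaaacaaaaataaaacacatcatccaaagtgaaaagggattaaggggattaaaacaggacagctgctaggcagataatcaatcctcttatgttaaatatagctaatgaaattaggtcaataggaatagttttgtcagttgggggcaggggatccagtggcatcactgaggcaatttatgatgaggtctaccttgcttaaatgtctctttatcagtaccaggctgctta
Kdm3a, chr6:71632868-71633167, - strand: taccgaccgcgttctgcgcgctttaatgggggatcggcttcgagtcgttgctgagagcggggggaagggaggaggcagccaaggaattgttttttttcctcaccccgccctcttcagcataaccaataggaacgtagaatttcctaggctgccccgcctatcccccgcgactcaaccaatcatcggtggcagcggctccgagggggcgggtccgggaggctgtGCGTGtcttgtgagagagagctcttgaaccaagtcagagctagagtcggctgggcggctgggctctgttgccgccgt
Kdm5b, chr1:134559928-134560227, + strand: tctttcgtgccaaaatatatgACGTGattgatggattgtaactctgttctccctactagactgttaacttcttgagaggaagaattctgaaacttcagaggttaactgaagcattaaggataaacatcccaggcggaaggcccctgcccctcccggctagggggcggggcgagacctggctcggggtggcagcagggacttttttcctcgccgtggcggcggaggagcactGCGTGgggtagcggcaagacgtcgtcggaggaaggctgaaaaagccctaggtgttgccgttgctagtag
Kdm4a, chr4:118179994-118180293, - strand: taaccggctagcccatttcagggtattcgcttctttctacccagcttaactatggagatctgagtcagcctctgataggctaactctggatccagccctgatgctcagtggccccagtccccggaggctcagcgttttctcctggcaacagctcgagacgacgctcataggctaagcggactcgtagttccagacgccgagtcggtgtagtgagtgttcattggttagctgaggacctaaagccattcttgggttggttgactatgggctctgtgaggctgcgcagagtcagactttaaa

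The window at the inner Kdm4c start held 6 matches, within positions -85 to -32, and the window at the outer start held 0. Of all 32851 windows of this length, 43.8% held at least 1 match and 0.694% held at least 6. The inner Kdm4c window was 64.67% G and C, against a median of 52.7% over all windows. Its 4 ACGTG matches lie in CACGTG palindromes, each counted on both strands. The Kdm3a window shown held 1 match, at -27, and those at its other 2 annotated starts held 0. Kdm5b had matches at -229 and -19, and Kdm4a had 0. All 4 Kdm2b windows, which are not printed, held GCGTG, as did 32.4% of all windows, and Kdm2b fell at 1% oxygen. Its windows starting at 122900301 and 122900318 overlap and hold the same 3 matches. They were 81.67% and 79.67% G and C. A match describes letters in a window, and binding was not measured. Any link between matches and the change of a gene was not tested.

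Levels were first compared per kilobase of exon. Kdm6b had the highest mean among the 10 genes in 7 of 8 groups, at 73.5 CPM per kb in DBA/2 cells at 20% oxygen. In DBA/2 cells at 1% oxygen Kdm3a (46.7 ± 2.0 CPM per kb, SD, n = 2) and Kdm6b (44.5 ± 2.3) had overlapping libraries, as they did in Top1mt wild type cells (49.7 ± 0.01 and 49.7 ± 2.3). Kdm4c was lowest in all 8 groups, from 1.74 CPM per kb in DBA/2 cells at 20% oxygen to 4.99 in Top1mt wild type cells. It also had the widest span in CPM, with a highest group mean 2.87 times the lowest, while Kdm3b had the narrowest, at 1.62 times.

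**Figure D2:**
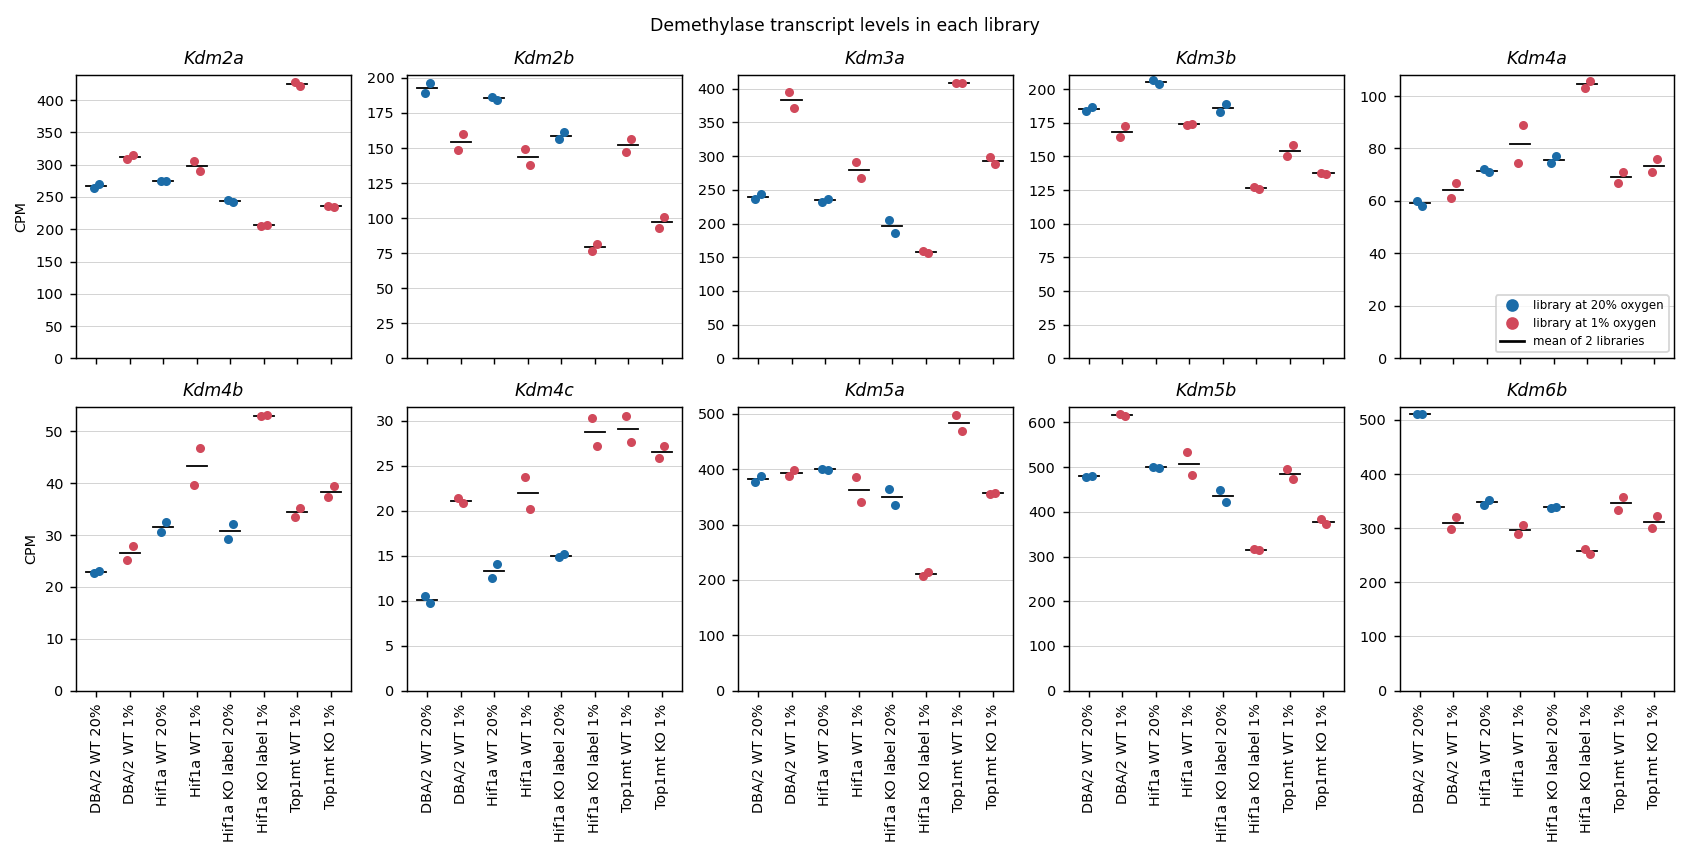
CPM of each demethylase gene in each of 16 libraries (points, blue at 20% and red at 1% oxygen), with group means as bars. Kdm4c is higher at 1% than at 20% oxygen in each line with both levels, and Kdm2b is lower.

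In DBA/2 cells 5 of the 10 genes rose at 1% oxygen (Kdm2a, Kdm3a, Kdm4b, Kdm4c and Kdm5b) and 3 fell (Kdm2b, Kdm3b and Kdm6b), at an adjusted p under 0.05 over 14841 genes. Of all genes tested 57.4% were called, 31.8% higher and 25.5% lower, and the median log2 fold change was 0.16 for the 10 genes and 0.04 for all genes. In Hif1a wild type cells 5 rose and 4 fell, against 53.1% of all genes called (18.4% higher, 34.6% lower), with medians of 0.07 and -0.09. In the libraries labelled Hif1a KO 3 rose at 1% oxygen, the 3 KDM4 genes, and 7 fell, against 79.9% of all genes called (25.2% higher, 54.7% lower). Medians there were -0.35 for the 10 genes and -0.29 for all genes. The share called among the 10 genes can be read only against these large shares of all genes, so sizes are given with each gene. The same holds where libraries of 2 groups did not overlap. Of all genes tested, 44.8% lay wholly above and 36.5% wholly below at 1% oxygen in DBA/2 cells. Those shares were 26.6% and 47.4% in Hif1a wild type cells and 29.3% and 60.5% in libraries labelled Hif1a KO. For Top1mt KO against wild type they were 34.8% and 43.8%.

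A scaling step moved several of these balances. CPM divides by all reads, and median-of-ratios scaling moved the median of all genes from -0.29 to 0.02 in the libraries labelled Hif1a KO. The share of called genes that were higher went from 31.6% to 53.0%, and the demethylase genes called lower went from 7 to 3. Of all 14841 genes, those called lower went from 8118 to 5255. In Hif1a wild type cells that share went from 34.7% to 49.7%. Several values in the Hif1a line are therefore also given relative to the median of all genes or after that scaling.

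**Figure D3:**
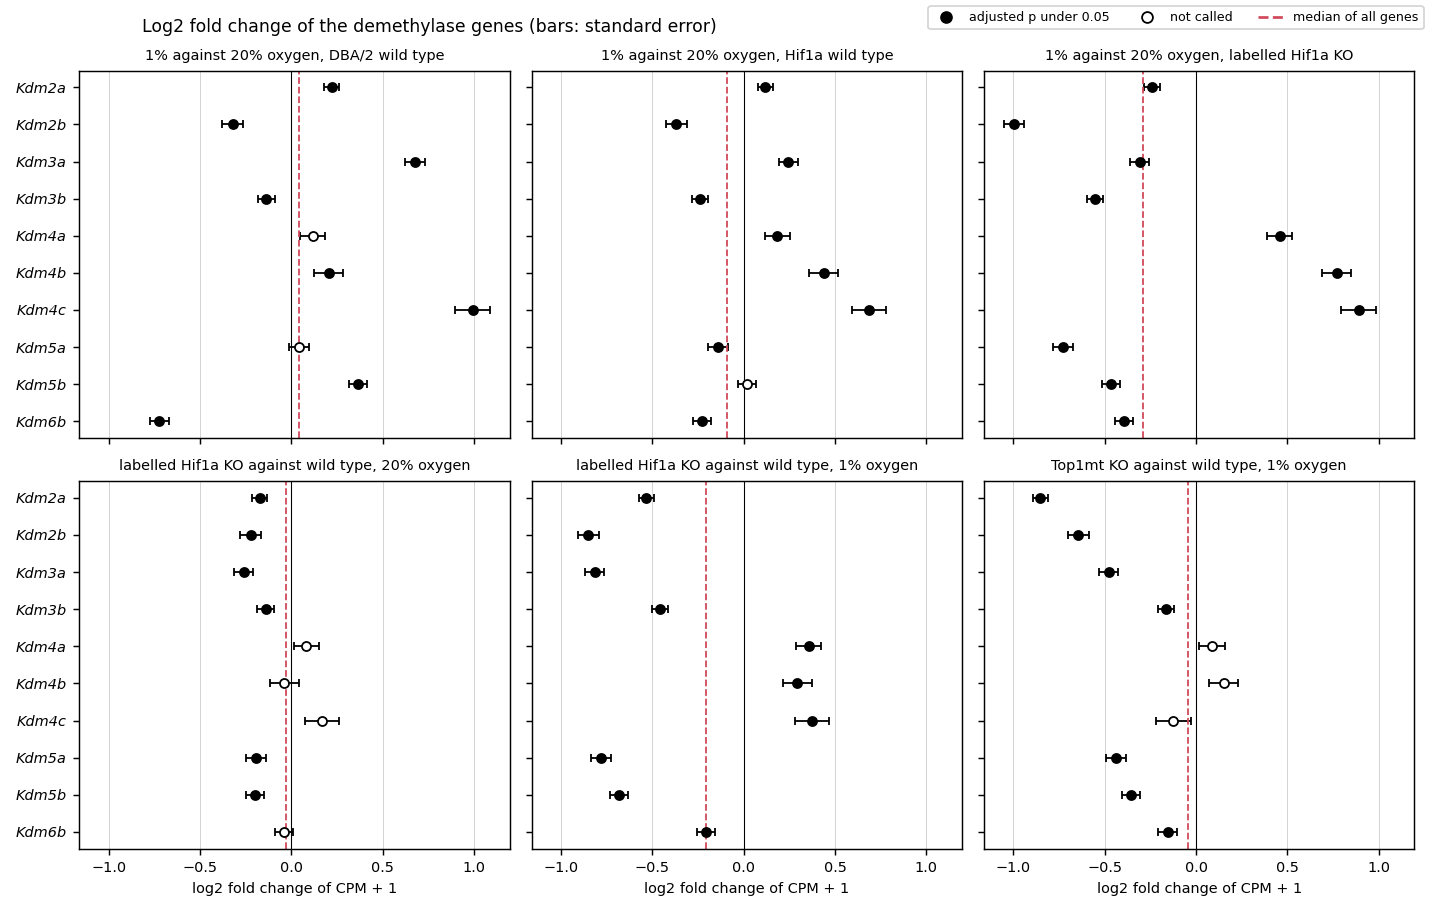
Log2 fold change of CPM + 1 (horizontal axis) with its standard error for each demethylase gene in 6 comparisons, filled where the adjusted p is under 0.05, with the median of all genes as a dashed line. The 3 KDM4 genes lie right of the dashed line in each oxygen comparison, and Kdm2b lies left of it in all 6 panels.

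The KDM3 genes remove H3K9 methylation, and Kdm3a (chromosome 6, 71588972 to 71632990, GRCm38) changed more than Kdm3b at low oxygen in DBA/2 cells. It stood at 236 and 244 CPM in DBA/2 libraries at 20% oxygen and at 396 and 372 CPM at 1%. Its Hif1a wild type values were 233 and 237 CPM against 291 and 267 CPM. Both 1% libraries lay above both 20% libraries in DBA/2 and in Hif1a wild type cells, as for 44.8% and 26.6% of all genes tested. Kdm3a rose by a log2 fold change of 0.68 ± 0.05 (SE) in DBA/2 cells (adjusted p = 2.4e-09) and by 0.25 ± 0.05 in Hif1a wild type cells (adjusted p = 0.00066). The rise was smaller in the Hif1a wild type line by 0.43 ± 0.07 on the log2 scale (adjusted p = 0.00012 for the difference).

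In the libraries labelled Hif1a KO, Kdm3a stood at 206 and 186 CPM at 20% oxygen and at 159 and 157 CPM at 1%. Its log2 fold change there was -0.31 ± 0.05 (adjusted p = 2.3e-05), but 0.05 after median-of-ratios scaling, and -0.02 relative to the median of all genes. The oxygen response was lower by 0.55 ± 0.07 than in Hif1a wild type cells (adjusted p = 4.8e-06), and by 0.28 after that scaling (adjusted p = 0.0042). At 1% oxygen Kdm3a fell by 0.82 ± 0.05 between Hif1a wild type libraries and those labelled Hif1a KO, or by 0.61 relative to all genes. In the Top1mt line it stood at 408 and 409 CPM in wild type and at 298 and 288 CPM in KO libraries, a fall of 0.48 ± 0.05 (adjusted p = 2.5e-07). The Top1mt wild type level was the highest of the 8 groups.

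Kdm3b (chromosome 18, 34777047 to 34838660) moved the other way at low oxygen in wild type cells. It stood at 184 and 187 CPM in DBA/2 libraries at 20% oxygen against 164 and 172 CPM at 1%, and at 207 and 204 against 173 and 174 CPM in Hif1a wild type ones. The falls were 0.14 ± 0.04 (adjusted p = 0.014) and 0.24 ± 0.04 (adjusted p = 0.00018), and no library overlapped between oxygen levels. Relative to all genes the Hif1a wild type fall was 0.145. The DBA/2 call was lost without the first 1% library (-0.10, adjusted p = 0.136) or without the second 20% library (-0.13, adjusted p = 0.0824). Libraries labelled Hif1a KO went from 183 and 189 CPM to 127 and 126 CPM, a log2 fold change of -0.55 ± 0.04, or -0.26 relative to all genes. In Top1mt KO cells Kdm3b fell by 0.16 ± 0.04 (adjusted p = 0.0037), a call lost without the second wild type library (-0.12, adjusted p = 0.0628) and by DESeq2 (adjusted p = 0.0873). Exons of Kdm3b share 3468 bases with the opposite-strand gene Gm26538, and the strand setting of the counting is not stated in the notes or labels.

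Within a library the ratio of Kdm3a to Kdm3b reads does not depend on scaling. Like the other ratios below, it can still differ with the mix of cells, whose part was not tested. The share of other gene pairs whose ratios separate as fully by oxygen level was not counted. It went from 1.29 ± 0.02 (SD, n = 2) at 20% to 2.28 ± 0.18 at 1% oxygen in DBA/2 cells and from 1.14 ± 0.03 to 1.60 ± 0.10 in Hif1a wild type cells. In libraries labelled Hif1a KO it went from 1.05 ± 0.10 to 1.25 ± 0.002, with no overlap between oxygen levels. The balance between the pair thus stood further toward Kdm3a at 1% oxygen in all 3 oxygen comparisons, and was 2.65 ± 0.11 in Top1mt wild type and 2.13 ± 0.04 in Top1mt KO cells.

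**Figure D4:**
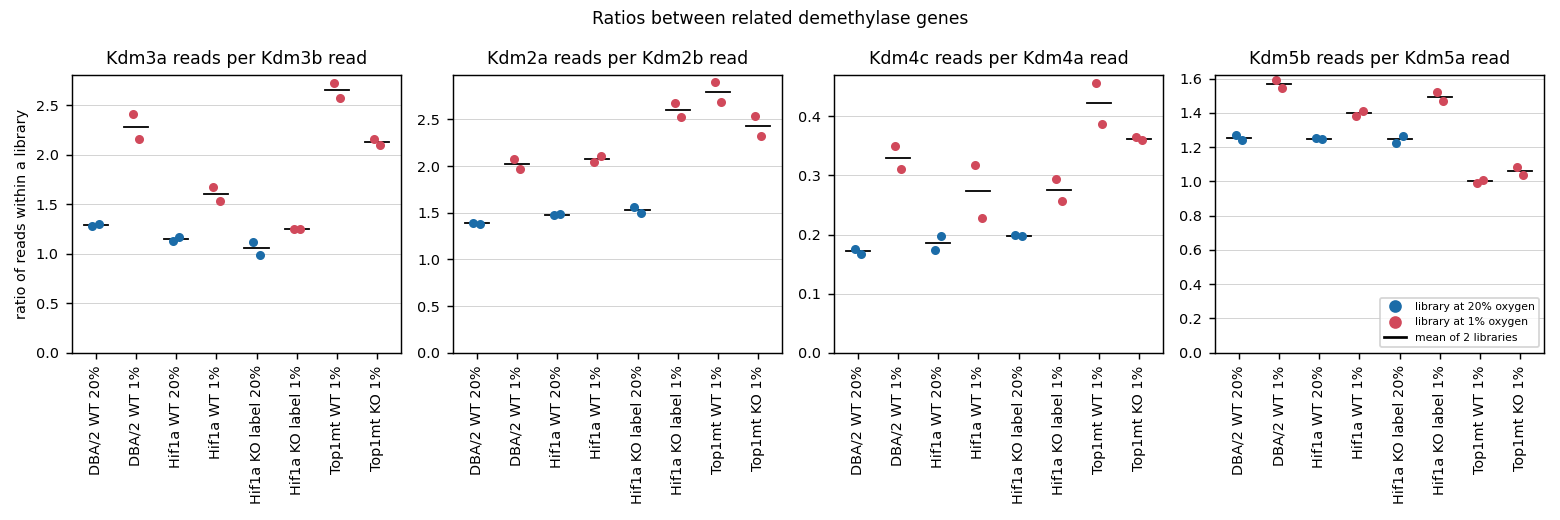
Reads of one demethylase gene per read of a related one within each library (points, blue at 20% and red at 1% oxygen), with group means as bars. In each line with both oxygen levels the 1% libraries lie above the 20% libraries for all 4 ratios drawn. The direction depends on which gene of a pair is put on top, for which no fixed rule was used. Kdm6b reads per Kdm6a read, not drawn, were lower at 1% oxygen in each of these lines.

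The KDM4 genes act on H3K9 and H3K36 trimethylation, and Kdm4c (chromosome 4, 74242497 to 74405860) had the largest rise of the 10 genes in DBA/2 cells. It stood at 10.5 and 9.73 CPM at 20% oxygen and at 21.5 and 20.8 CPM at 1%. Hif1a wild type libraries went from 12.5 and 14.1 to 23.8 and 20.2 CPM, and those labelled Hif1a KO from 14.8 and 15.2 to 30.3 and 27.2 CPM. Every 1% library lay above every 20% library, across lines too. Log2 fold changes were 0.99 ± 0.09 in DBA/2 cells (adjusted p = 3.9e-08), 0.69 ± 0.09 in Hif1a wild type cells (6.1e-06) and 0.89 ± 0.09 in those labelled Hif1a KO (4.1e-08). The response of the libraries labelled Hif1a KO was 0.20 above that of Hif1a wild type cells (95% interval -0.08 to 0.49, adjusted p = 0.20), and 0.47 after median-of-ratios scaling (adjusted p = 0.0061).

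Kdm4b (chromosome 17, 56326062 to 56402870) stood at 22.6 and 23.1 CPM in DBA/2 libraries at 20% oxygen and at 25.2 and 27.9 CPM at 1%. Hif1a wild type libraries went from 30.6 and 32.5 to 39.7 and 46.7 CPM, and in those labelled Hif1a KO from 29.3 and 32.1 to 52.9 and 53.2 CPM. The groups did not overlap in any line. Kdm4b rose by 0.44 ± 0.08 in Hif1a wild type cells (adjusted p = 0.00013) and by 0.77 ± 0.08 in libraries labelled Hif1a KO (adjusted p = 2.8e-08), or 0.53 and 1.06 relative to all genes. The DBA/2 rise of 0.21 ± 0.08 (adjusted p = 0.034) was lost after median-of-ratios scaling (adjusted p = 0.0762), with both count tests, and without 3 of the 4 libraries, to 0.14 (adjusted p = 0.258) without the second 1% library.

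Kdm4a (chromosome 4, 118136957 to 118180043) stood at 60.0 and 58.1 CPM in DBA/2 libraries at 20% oxygen and at 61.3 and 67.0 CPM at 1%, a log2 fold change of 0.12 (95% interval -0.03 to 0.26, adjusted p = 0.16). Hif1a wild type libraries went from 72.2 and 70.9 to 74.6 and 88.9 CPM. That rise of 0.18 ± 0.07 (adjusted p = 0.031) rested on the second 1% library, without which it was 0.06 (adjusted p = 0.493), and was lost too without either 20% library, with no filter on low values or with the compared groups alone. In libraries labelled Hif1a KO Kdm4a rose from 74.4 and 77.1 to 103 and 106 CPM, by 0.46 ± 0.07 (adjusted p = 4.8e-06), or 0.75 relative to all genes.

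All 3 KDM4 genes were higher at 1% oxygen in libraries labelled Hif1a KO than in Hif1a wild type ones, by 0.36 ± 0.07 (Kdm4a), 0.29 ± 0.08 (Kdm4b) and 0.37 ± 0.09 (Kdm4c), with adjusted p of 0.0001, 0.0024 and 0.0014. After median-of-ratios scaling these differences were 0.64, 0.57 and 0.65. The Kdm4b call was lost without the first Hif1a wild type 1% library (0.18, adjusted p = 0.069). None of the 3 passed the test between the same labels at 20% oxygen. The feeder sum was 1.80 times as high in the first of these comparisons, and its part was not tested. The Top1mt line gave 33.5 and 35.3 CPM in wild type and 37.3 and 39.4 CPM in KO libraries for Kdm4b, a log2 fold change of 0.15 (95% interval -0.01 to 0.32). Kdm4a (0.09, interval -0.06 to 0.23) and Kdm4c (-0.12, interval -0.32 to 0.08) did not pass the test there either.

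The KDM2 genes act on H3K36, and KDM2B also brings a variant Polycomb complex to CpG islands. Kdm2a (chromosome 19, 4314419 to 4398285) stood at 264 and 271 CPM in DBA/2 libraries at 20% oxygen and at 308 and 315 CPM at 1%, a rise of 0.22 ± 0.04 (adjusted p = 0.00017). In Hif1a wild type cells it went from 275 and 275 to 306 and 291 CPM, by 0.12 ± 0.04 (adjusted p = 0.024). That call was lost without the first 1% library (0.08, adjusted p = 0.155), without either 20% library, or with the compared groups alone (adjusted p = 0.112). Libraries labelled Hif1a KO went from 245 and 242 to 205 and 207 CPM, a log2 fold change of -0.24 ± 0.04, which became 0.12 after median-of-ratios scaling (adjusted p = 0.012). The direction of Kdm2a in those libraries thus depends on the scaling.

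Kdm2a showed its largest difference in the Top1mt line. It stood at 429 and 422 CPM in wild type and at 236 and 235 CPM in KO libraries, and fell by 0.85 ± 0.04 (adjusted p = 5e-12). This was also the largest Top1mt difference among the 10 genes. Of those, 7 fell and 0 rose in Top1mt KO cells, against 58.4% of all genes called (25.2% higher, 33.2% lower), with 0 higher at an unadjusted p under 0.05 in limma or by DESeq2, while Kdm4b was called higher after median-of-ratios scaling (adjusted p = 0.033) and by edgeR (adjusted p = 0.0282). Medians were -0.26 for the 10 genes and -0.04 for all genes. The germ cell sum was 0.724 and the feeder sum 1.89 times as high in KO as in wild type libraries, and their part was not tested.

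Kdm2b (chromosome 5, 122870665 to 122989823) fell in every oxygen comparison. It went from 189 and 196 to 149 and 160 CPM in DBA/2 libraries, and from 187 and 185 to 150 and 138 CPM in Hif1a wild type ones. Libraries labelled Hif1a KO went from 157 and 161 to 76.6 and 81.8 CPM, the lowest of all 16. No library overlapped between oxygen levels within a line. The falls were 0.32 ± 0.06 (adjusted p = 8.8e-05), 0.37 ± 0.06 (2.4e-05) and 1.00 ± 0.06 (4.6e-12), the last 0.71 relative to all genes. The fall in libraries labelled Hif1a KO was deeper than in Hif1a wild type ones by 0.63 ± 0.08 (adjusted p = 2.9e-06), and by 0.36 after scaling (adjusted p = 0.00074). In Top1mt KO cells Kdm2b fell from 147 and 157 to 92.8 and 101 CPM, by 0.65 ± 0.06 (adjusted p = 1.4e-08). Its exons share 627 bases with Rnf34 and 199 with A930024E05Rik on the opposite strand, and 124 with Gm44574 on the same strand.

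Of 9 partners of KDM2B in the variant Polycomb complex, 5 rose in DBA/2 cells at 1% oxygen, with Rnf2, the ubiquitin ligase of the complex, at 0.57 ± 0.06, Yaf2 at 0.46 ± 0.08 and Pcgf1 at 0.34 ± 0.10. Kdm2b fell in the same libraries, where 31.8% of all genes were called higher and 25.5% lower. Bcor and Bcorl1 were the 2 partners that fell in Hif1a wild type cells, by 0.65 ± 0.05 and 0.40 ± 0.06, and 2 others rose. Of all genes 34.6% were called lower and 18.4% higher there. In libraries labelled Hif1a KO 1 rose and 7 fell, or 2 and 2 after median-of-ratios scaling. Before scaling 25.2% of all genes were called higher and 54.7% lower in that comparison. After scaling 5917 of all 14841 genes were called higher there and 5255 lower.

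The KDM5 genes remove H3K4 methylation. Kdm5b (chromosome 1, 134560171 to 134635285) stood at 478 and 481 CPM in DBA/2 libraries at 20% oxygen and at 620 and 615 CPM at 1%, the highest pair of any group. It rose by 0.36 ± 0.05 (adjusted p = 4e-06). In Hif1a wild type libraries it stood at 501 and 499 against 534 and 482 CPM, and the groups overlapped, with a log2 fold change of 0.02 (95% interval -0.08 to 0.12) that was -0.05 without the first 1% library. The rise was smaller in that line than in DBA/2 cells by 0.34 ± 0.07 (adjusted p = 0.00055). Libraries labelled Hif1a KO went from 448 and 423 to 316 and 314 CPM, a fall of 0.46 ± 0.05, which after median-of-ratios scaling was 0.10 and no longer called (adjusted p = 0.066).

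Kdm5a (chromosome 6, 120364124 to 120444574) stood at 377 and 387 CPM at 20% and 389 and 398 CPM at 1% oxygen in DBA/2 libraries, a log2 fold change of 0.04 (95% interval -0.07 to 0.16). In Hif1a wild type libraries it went from 401 and 400 to 386 and 340.5 CPM. That fall of 0.14 ± 0.06 (adjusted p = 0.038) was -0.05 after scaling (adjusted p = 0.43) and -0.05 without the second 1% library (adjusted p = 0.474), and the call was lost too without either 20% library. Libraries labelled Hif1a KO went from 365 and 335 to 208 and 214 CPM, a fall of 0.73 ± 0.06 (adjusted p = 3e-10), or 0.44 relative to all genes. In the Top1mt line Kdm5a fell by 0.44 ± 0.06 and Kdm5b by 0.36 ± 0.05 in KO cells, and no library overlapped. The Kdm5a exons share 251 bases with Ccdc77 on the opposite strand.

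The ratio of Kdm5b to Kdm5a reads was higher at low oxygen in all 3 oxygen comparisons, with no overlap between libraries. It went from 1.26 ± 0.02 to 1.57 ± 0.04 in DBA/2 cells, from 1.25 ± 0.001 to 1.40 ± 0.02 in Hif1a wild type cells and from 1.25 ± 0.03 to 1.495 ± 0.04 in libraries labelled Hif1a KO. It was 1.00 ± 0.01 in Top1mt wild type and 1.06 ± 0.03 in Top1mt KO cells at 1% oxygen, below the 1% libraries of the other lines. No test was run on the ratios, and the share of other gene pairs that separate as fully was not counted.

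Kdm6b (chromosome 11, 69398508 to 69413675) removes H3K27 methylation and fell furthest of the 10 genes in DBA/2 cells. It stood at 511 and 511 CPM at 20% oxygen and at 298 and 321 CPM at 1%. Hif1a wild type libraries went from 343 and 353 to 289 and 305 CPM, and those labelled Hif1a KO from 337 and 340 to 261 and 253 CPM. The DBA/2 libraries at 20% oxygen stood apart above all others, and the 1% levels of DBA/2 and Hif1a wild type cells overlapped. Kdm6b fell by 0.72 ± 0.05 in DBA/2 cells (adjusted p = 5.3e-10) and by 0.23 ± 0.05 in Hif1a wild type cells (adjusted p = 0.00088), a difference of 0.49 ± 0.07 (adjusted p = 1.8e-05). Relative to all genes the fall in Hif1a wild type cells was 0.135. In libraries labelled Hif1a KO the fall of 0.39 ± 0.05 shrank to 0.03 after median-of-ratios scaling (adjusted p = 0.56).

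The genotypes differed little in Kdm6b. Between the labels of the Hif1a line it differed by -0.04 at 20% oxygen (95% interval -0.15 to 0.07), and by -0.21 ± 0.05 at 1%, a value that was 0.08 after scaling. In Top1mt KO cells it fell from 334 and 357 to 299.5 and 322 CPM, by 0.15 ± 0.05 (adjusted p = 0.013). That call was lost after scaling (adjusted p = 0.1), with both count tests, without the first KO library (-0.10, adjusted p = 0.165) and without the second wild type library (-0.11, adjusted p = 0.158). Exons of Kdm6b share 286 bases with the antisense gene Kdm6bos.

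Its X-linked relative Kdm6a, which acts on the same mark, rose in DBA/2 cells by 0.67 ± 0.08 as Kdm6b fell, so that Kdm6b reads per Kdm6a read went from 16.2 ± 0.2 to 6.14 ± 0.57. That ratio in Hif1a wild type libraries stood at 8.68 and 8.68 at 20% oxygen and between 6.11 and 7.81 at 1%. In libraries labelled Hif1a KO it went from 8.36 ± 0.46 to 7.25 ± 0.18. At 1% oxygen it was 10.6 ± 0.1 in Top1mt wild type and 15.5 ± 0.6 in Top1mt KO cells. On the writing side of H3K27 in DBA/2 cells, Ezh2 (0.81 ± 0.07) and Suz12 (0.50 ± 0.06) rose and Ezh1 fell by 0.48 ± 0.05. There 3 of 4 genes were called higher and 1 lower, against 31.8% and 25.5% of all genes. All 4 fell in libraries labelled Hif1a KO, where 54.7% of all genes were called lower.

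At 20% oxygen 6 of the 10 genes were lower and 0 higher in libraries labelled Hif1a KO than in Hif1a wild type ones, against 22.4% of all genes called (12.9% higher, 9.55% lower). These were Kdm2a, Kdm2b, Kdm3a, Kdm3b, Kdm5a and Kdm5b, with log2 fold changes from -0.26 (Kdm3a) to -0.14 (Kdm3b), and 0 were higher also at an unadjusted p under 0.05 in limma, by edgeR or by DESeq2. Without single libraries the count of genes lower was 1 to 4. Kdm3a stayed called throughout (highest adjusted p = 0.0458), while the other 5 were each lost without at least 1 library, all 5 of them without the first Hif1a wild type library at 20% oxygen (adjusted p from 0.0517 for Kdm2a to 0.162 for Kdm3b). With all libraries kept, the Kdm3b call was also lost by edgeR (-0.12, adjusted p = 0.0559) and by DESeq2 (-0.13, adjusted p = 0.0777). The 6 genes called lower at 20% oxygen and Kdm6b were lower at 1% oxygen, 7 in all against 3 higher. There 77.4% of all genes were called (28.3% higher, 49.1% lower). After median-of-ratios scaling the 6 were still called lower and Kdm6b was not. That scaling moved the median of all genes from -0.21 to 0.03 and the higher share of calls from 36.6% to 54.2%. With it 5030 of all 14841 genes were called lower. These comparisons share libraries with the oxygen comparisons of the same line. Between these labels at 20% oxygen 10 of 13 germ cell markers were called lower (median -0.23) and 22 of 24 feeder markers higher (median 0.49). The median of the 10 demethylase genes was -0.16. At 1% oxygen all 13 germ cell markers were lower and all 24 feeder markers higher. The part of these shifts was not tested.

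The oxygen response of libraries labelled Hif1a KO minus that of Hif1a wild type ones was called higher for 2 of the 10 genes and lower for 6, against 58% of all genes called (19% higher, 39% lower). Scaling moved the median of all genes from -0.17 to 0.07 and the higher share of calls from 32.8% to 61.4%. Kdm4a (0.27 ± 0.10) and Kdm4b (0.33 ± 0.11) were the higher ones, and both calls were lost without the first Hif1a wild type 1% library (0.15 and 0.22, adjusted p of 0.16 and 0.109). After the same scaling the calls of Kdm2a (adjusted p = 0.22) and Kdm3b (adjusted p = 0.58) among the lower ones were lost. The Kdm4a and Kdm4b calls were also lost without the first 20% library labelled Hif1a KO (0.25 and 0.27, adjusted p of 0.0672 and 0.0783). The Kdm4a call was lost as well without the first Hif1a wild type 20% library or the second 1% library labelled Hif1a KO, and the Kdm4b call without the second Hif1a wild type 20% library. Between the wild type lines, the response of Hif1a wild type minus DBA/2 cells was called higher for 1 gene, Kdm6b, and lower for 2, Kdm3a and Kdm5b, against 46% of all genes called (15.1% higher, 30.9% lower). Scaling moved the median of all genes there from -0.13 to -0.01 and the higher share of calls from 32.9% to 51.5%. All 3 calls held with it. Kdm4b (0.23, adjusted p = 0.099) became called higher too after that scaling (0.35, adjusted p = 0.017). So it did by edgeR (0.37, adjusted p = 0.0135) and by DESeq2 (0.36, adjusted p = 0.0355).

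Other erasers and writers of histone methylation were read beside the 10 genes. Of 21 other JmjC proteins 5 rose and 5 fell in DBA/2 cells at 1% oxygen, with a median of -0.01. The counts of each list in this comparison stand beside 31.8% of all genes called higher and 25.5% lower. Kdm7a, which acts on H3K9 and H3K27, rose from 71.7 to 136 CPM (0.91 ± 0.06), and Jarid2, a Polycomb partner without demethylase activity, fell by 0.64 ± 0.05. The demethylases Kdm1a and Kdm1b use flavin and not iron, and neither passed the test in DBA/2 cells. Both fell in Hif1a wild type cells, by 0.20 ± 0.05 and 0.46 ± 0.06, where 34.6% of all genes were called lower. Kdm1a lost that call after median-of-ratios scaling (-0.11, adjusted p = 0.061). Among writers in DBA/2 cells, 1 of 6 H3K9 methyltransferases rose and 2 fell, Ehmt2 (G9a) by 0.48 ± 0.06. Of 7 H3K4 methyltransferases 2 rose and 3 fell, Setd1b by 0.71 ± 0.08, and of 5 H3K36 methyltransferases 2 rose and 2 fell, Nsd2 rising by 0.34 ± 0.04. Of 10 genes of 2-oxoglutarate metabolism, which makes and uses the cosubstrate, 2 rose and 3 fell, with Idh2 at 0.60 ± 0.09 and Ogdh at -0.53 ± 0.05.

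In the libraries labelled Hif1a KO most writer genes fell in CPM together with most JmjC genes. All 6 H3K9, all 4 H3K27, 4 of 5 H3K36 and 6 of 7 H3K4 methyltransferase genes were called lower at 1% oxygen, against 54.7% of all genes. Their medians were -0.86, -0.73, -0.46 and -0.56, where the median of all genes was -0.29. After median-of-ratios scaling all 6 H3K9 and all 4 H3K27 genes were still called lower, but the H3K36 genes split into 2 higher and 2 lower and the H3K4 genes into 2 higher and 5 lower. Of the 21 other JmjC genes 3 rose, among them Phf2 (from 19.8 to 45.5 CPM) and Jmjd8 (1.10 ± 0.14), and 15 fell, Riox2 by 1.29 ± 0.05, or 5 and 8 after that scaling. Before scaling 25.2% of all genes were called higher and 54.7% lower. After it 5917 of all 14841 genes were called higher and 5255 lower. All 13 germ cell markers fell and 22 of 24 feeder markers rose in the same comparison, and their part in the result was not tested.

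**Figure D5:**
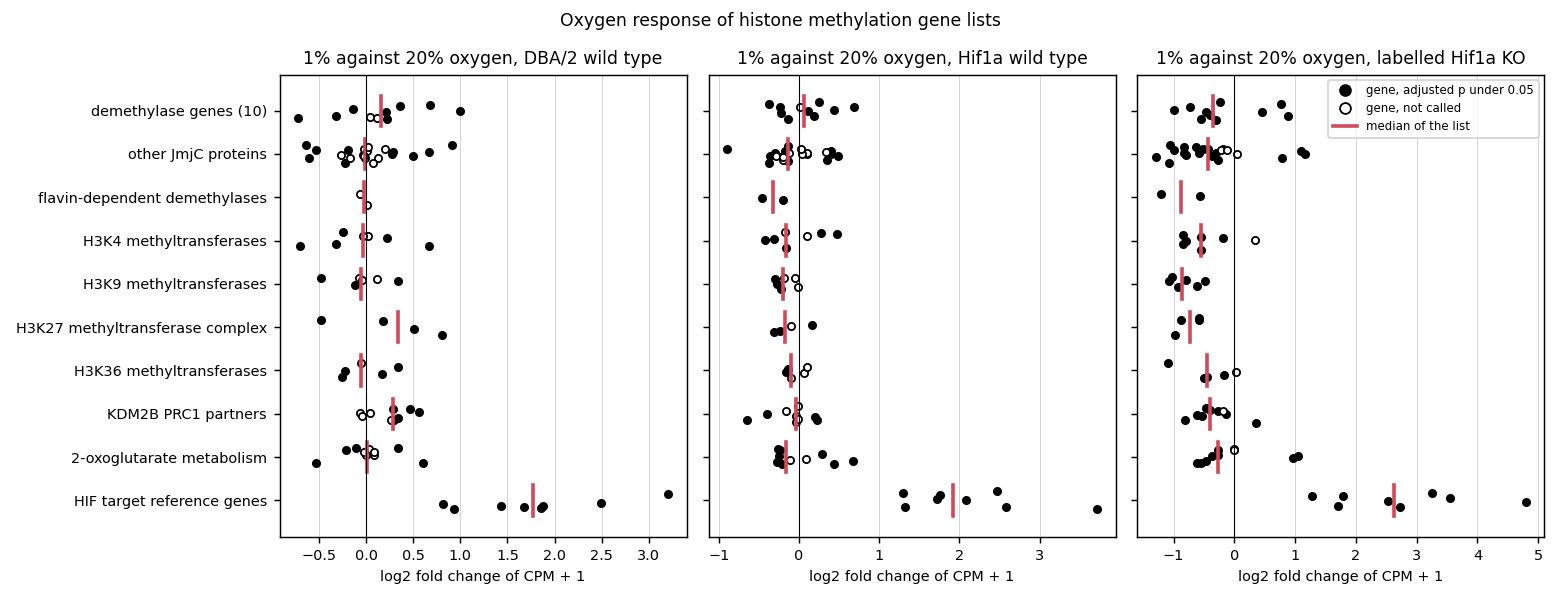
Log2 fold change at 1% against 20% oxygen (horizontal axis) of each gene in 10 lists, filled where the adjusted p is under 0.05, with the list's median as a red bar, in DBA/2, Hif1a wild type and labelled Hif1a KO libraries. The HIF reference genes lie at the far right in all 3 panels, while medians of the writer lists run from -0.06 to 0.34 in DBA/2 cells and from -0.86 to -0.46 in the libraries labelled Hif1a KO.

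Patterns over the 8 group means were compared with those of 11796 genes by Pearson's r, as a description of 8 points that share libraries and depth. Closest to Kdm3a were St8sia6 (0.986), Ss18l1 (0.984) and Dna2 (0.982). Kdm4b was closest to Cebpd (0.986), Dchs1 (0.986) and Zfp521 (0.983), Kdm4c to Smarca1 (0.981), Fam168a (0.977) and Aldh1l2 (0.974), and Kdm6b to Klf7 (0.988), Atg2a (0.964) and Psmd9 (0.963). Among the 10 genes themselves the most alike were Kdm4a with Kdm4b and Kdm2b with Kdm3b, at 0.930 each, and the most opposed were Kdm3b and Kdm4c, at -0.829.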

How the data were processed

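The authors deposited 1 table of CPM (library-scaled counts) for 21924 protein-coding genes in 16 libraries, 8 groups of 2, from stranded polyadenylated RNA-seq. The submitters' processing notes name cutadapt 1.16, STAR 2.6.0c, HTSeq 0.11.2, DESeq2 1.22.2 and build mm10, without roles or settings. CPM has the same sum in each library, so a rise of abundant genes lowers all others. All values were whole multiples of 1 read (tolerance 0.01), which gave back the reads.

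Groups came from the labels. The main test was limma 3.58.1 (R 4.3.3) on log2(CPM + 1) over all 16 libraries, with 1 mean per group, a trended prior and no replicate block. It covered the 14841 genes that reached a CPM of 1 in 2 or more libraries, and genes with a Benjamini-Hochberg adjusted p under 0.05 were called higher or lower. Fold changes understate low genes because of the pseudocount of 1. Alternatives were pseudocounts of 0.1 and 5, other filters, median-of-ratios scaling, edgeR 4.0.16 and DESeq2 1.42.0 on the recovered reads, a replicate block, the compared groups alone, and each library left out. The script was tested on simulated data. Replicates were not identical in any group, and differed beyond sampling noise. Those of Hif1a wild type cells at 1% oxygen differed most, with a chi-square per gene of 7.60, against 1.79 to 3.68 in other groups. Standard errors pool the spread of all 16 libraries, so they do not show this. Same-numbered libraries within a line correlated between -0.06 and 0.27 in their deviations, so the numbers were not taken as pairs.

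Named genes were all 10 demethylase genes, Hif1a and Top1mt, up to 3 called genes with the largest change per other list, and the 3 genes most like Kdm3a, Kdm4b, Kdm4c and Kdm6b. Members and lists were chosen with earlier results of these data known. Positions and exon lengths are from GENCODE M21 (GRCm38) and promoters from RefSeq.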

Additional observations from a re-analysis of the deposited data

Results flagged for a closer look

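The results given here are oxygen responses (log2 fold change of CPM + 1, 1% against 20% oxygen) that differed between groups of libraries by limma's test of the difference itself, at an adjusted p under 0.05 over all genes. Between the libraries labelled Hif1a KO and those of Hif1a wild type, the response was lower in the former for Kdm2a (-0.36), Kdm2b (-0.63), Kdm3a (-0.55), Kdm3b (-0.32), Kdm5a (-0.59) and Kdm5b (-0.48). It was higher in the former for Kdm4a (0.27) and Kdm4b (0.33). After median-of-ratios scaling the differences of Kdm2a (-0.09) and Kdm3b (-0.04) were no longer called, and those of Kdm4a and Kdm4b were 0.55 and 0.60. Those of Kdm2b, Kdm3a, Kdm5a and Kdm5b shrank to -0.36, -0.28, -0.31 and -0.21 and were still called.

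Between the wild type lines, the response in Hif1a wild type cells was lower than in DBA/2 cells for Kdm3a (-0.43) and Kdm5b (-0.34) and higher for Kdm6b (0.49). Kdm4b, not called here (0.23), was called higher after median-of-ratios scaling (0.35). The lines differ in background, in the marks on their library names and in the feeder sum, and these cannot be told apart. No group had the 4 libraries needed to look for a single library far from the others.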

How the results depend on the processing

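With 2 libraries a group, leaving one out leaves 1, which is then assumed to vary like the other groups. Of 1120 alternative values for the demethylase genes, 1012 kept direction and call, 65 lost the call, 16 gained it and 27 changed sign. After median-of-ratios scaling, by edgeR and by DESeq2, in that order, signs turned in labelled Hif1a KO libraries at 1% against 20% oxygen for Kdm2a (0.12, 0.080, 0.12) and Kdm3a (0.052, 0.012, 0.057), and in labelled Hif1a KO against wild type at 1% for Kdm6b (0.076, 0.040, 0.076). The same held for the response difference of labelled Hif1a KO and wild type for Kdm6b (0.11, 0.063, 0.11), and of Hif1a wild type and DBA/2 for Kdm2a (0.021, 0.027, 0.018), Kdm2b (0.077, 0.081, 0.073) and Kdm3b (0.022, 0.028, 0.020). The scaling shifts all genes of a library alike. Leaving out 1 library turned Kdm5b in Hif1a wild type cells (range -0.055 to 0.093), Kdm4b between labels at 20% (-0.10 to 0.026), and, between wild type lines, Kdm2b (-0.11 to 0.011) and Kdm4a (-0.056 to 0.19).

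Demethylase genes called higher in Hif1a wild type cells numbered 3 with the compared groups alone and 3 to 4 without single libraries. Those called lower in labelled Hif1a KO libraries numbered 3 after scaling, 4 by edgeR and 3 by DESeq2, and those higher in Top1mt KO 1 after scaling and 1 by edgeR. Between labels at 20% oxygen, 1 to 4 were lower and 1508 to 2957 of all genes were called without single libraries. For the difference of labels 0 to 2 were higher without single libraries. For that of wild type lines 2 were higher after scaling, by edgeR and by DESeq2, and 1 to 2 higher and 2 to 4 lower without single libraries. The cause was not tested.

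With a replicate block 8760, 8151, 11924, 3804, 11541 and 8826 genes were called in the 6 comparisons, against 8514, 7877, 11865, 3329, 11488 and 8668 without it. The block changed 2 calls among the demethylase genes, the response differences of Kdm6b between labels (adjusted p = 0.0265) and of Kdm5a between wild type lines (adjusted p = 0.0366). Kdm4c, with the fewest reads of the 10 genes, has the largest standard errors.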
